A study of Mus musculus with 7 samples.

Results

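8 chromatin regulators that act when spermatids replace their histones with protamines were followed in RNA of mouse testis: *Brdt*, *Nutm1*, *Cdyl*, *Chd5*, *Ep400*, *Kat5*, *Epc1* and *Kat8*. They were chosen by name and not by a measured value, as the rows of the testis table whose gene symbol is 1 of these 8, out of 19719 genes listed. RNA of total testis from C57BL/6 males was sequenced in 7 libraries. 3 libraries carry the label WT and came from fl/Y males, which hold an *Rlim* allele flanked by loxP sites on their single X chromosome. 4 carry the label KO and came from cKO/Y Sox2-Cre males, in which the Sox2-Cre transgene, active from the early embryo, deletes *Rlim* in the whole body, so that germ cells and somatic cells of the testis lack the gene alike. Per the study, the males were 8 weeks old and the fl/Y males were littermates. The sources do not say whether any control carries the Cre transgene. The comparison of the genotypes asks which testis transcripts differ when *Rlim*, which encodes an X-linked ubiquitin ligase, is absent.

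Late in spermiogenesis, the haploid phase in which round spermatids become sperm, most histones are acetylated, evicted and replaced first by transition proteins and then by protamines. Acetyltransferases of the TIP60-NuA4 and MSL or NSL complexes acetylate histone tails, NUTM1 recruits further acetyltransferases, the bromodomains of BRDT bind the acetylated tails, and the remodelling enzymes CHD5 and EP400 move or exchange histones with energy from ATP. CDYL is a chromodomain protein that acts in repression and lowers histone crotonylation, a mark related to acetylation.

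The promoters of *Chd5*, *Ep400* and *Brdt* are shown because, as deposited, *Chd5* and *Ep400* had the highest correlation across libraries of all 28 pairs of these genes and *Brdt* with *Ep400* the lowest. Each line gives the 120 bases before the outermost start of the gene in RefSeq or GENCODE M21, with the sequence from RefSeq (GRCm38.p6), 5′ to 3′ on the strand of the gene. Capitals mark the letters TGACG or their complement CGTCA, the half-site of the cAMP response element to which CREM, a transcription factor of spermatids, can bind.
Chd5 (chr4:152338531-152338650, + strand): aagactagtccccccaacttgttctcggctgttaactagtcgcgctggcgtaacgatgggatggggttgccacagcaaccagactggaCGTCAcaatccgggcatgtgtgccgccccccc
Ep400 (chr5:110770718-110770837, - strand): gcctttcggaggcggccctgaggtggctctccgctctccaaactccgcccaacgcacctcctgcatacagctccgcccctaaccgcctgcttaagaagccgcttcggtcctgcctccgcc
Brdt (chr5:107331039-107331158, + strand): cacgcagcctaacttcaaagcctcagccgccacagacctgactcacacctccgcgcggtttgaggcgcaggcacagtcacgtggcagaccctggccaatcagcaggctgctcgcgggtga

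RefSeq promoter entries were at hand for 6 of the 8 genes, all except *Nutm1* and *Epc1*. In windows of 250 bases before each annotated start, searched on both strands, the half-site stood once in *Chd5*, 32 bases before its first start, once before 1 of the 2 starts of *Kat8* and once before each of the 2 starts of *Kat5*. No match lay in the windows of *Brdt*, *Ep400* and *Cdyl*. Among 32851 promoter windows of the mouse genome 17.8% held the half-site, and the whole element TGACGTCA, which contains it, was in 1.55% of them and in none of these genes. The GC box GGGCGG, held by 32.7% of all windows, occurred 3 times before *Chd5*, 2 times before *Ep400*, 7 times before each of 2 of the 3 starts of *Cdyl*, 3 times before 1 start of *Kat5* and once before each start of *Kat8*, with none before *Brdt*. A CCAAT box, a motif of 33.9% of all windows, stood before *Brdt*, before each start of *Kat8* and before 1 start of *Kat5*. That of *Brdt* was 61 bases before its RefSeq start, which lies downstream of the GENCODE start where the sequence shown above ends. These matches of letters are a description of the windows and not sites of binding.

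Values are in CPM, read counts scaled to the size of the library. Depth ranged from 2822168 to 8633399 reads in listed genes, so that 3 reads, the limit that a count of 0 allows, correspond to 0.301 to 0.945 CPM, counting error only. The fl/Y replicates 1 and 2 and cKO/Y replicates 1 and 2 carry the label batch 2, and fl/Y replicate 3 and cKO/Y replicates 3 and 4 the label batch 1. *Rlim* itself was at 61.5 to 99.5 CPM in the 3 fl/Y libraries and at 20.7 to 35.7 CPM in the 4 cKO/Y libraries, a log2 difference of -1.38 with an adjusted p of 0.0087 (limma). Mitochondrial genes took 5.88% to 21.4% of reads. The tissue label was met by its markers, since the summed levels of spermatocyte, round spermatid, elongating spermatid, Sertoli and Leydig cell genes were at 394 CPM or more in every library, and 0 of 5 epididymal markers were listed in the table. The study calls the libraries biological replicates without saying how many animals each holds, so p-values measure the spread between these libraries. In RNA of a whole organ, fewer cells of a type and less RNA per cell cannot be told apart.

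None of the 8 regulators differed between cKO/Y and fl/Y testes beyond the spread between libraries. All 8 were above 1 CPM in at least 3 libraries and were tested in a fit over 19400 genes by limma with the batch as a covariate. 0 of 8 reached an unadjusted p of 0.05, beside 2.58% of all genes tested (501, of which 265 or 1.37% were lower and 236 or 1.22% higher in cKO/Y), and all had an adjusted p of 1.00. The ranges of the genotypes overlapped for 8 of 8, and 2.92% of all genes had ranges that did not overlap. After adjustment 1 gene of the table was called, *Rlim*, or 0.00515%. 4 of the fitted differences were above 0 and 4 below, with a median of 0.0068 on the log2 scale, against -0.0055 over all genes. The 95% intervals of the 8 ratios of cKO/Y to fl/Y lay between 0.708 and 1.39, which is the size of change these libraries leave possible for any of them. A p that misses the threshold does not show equal levels.

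**Figure D1:**
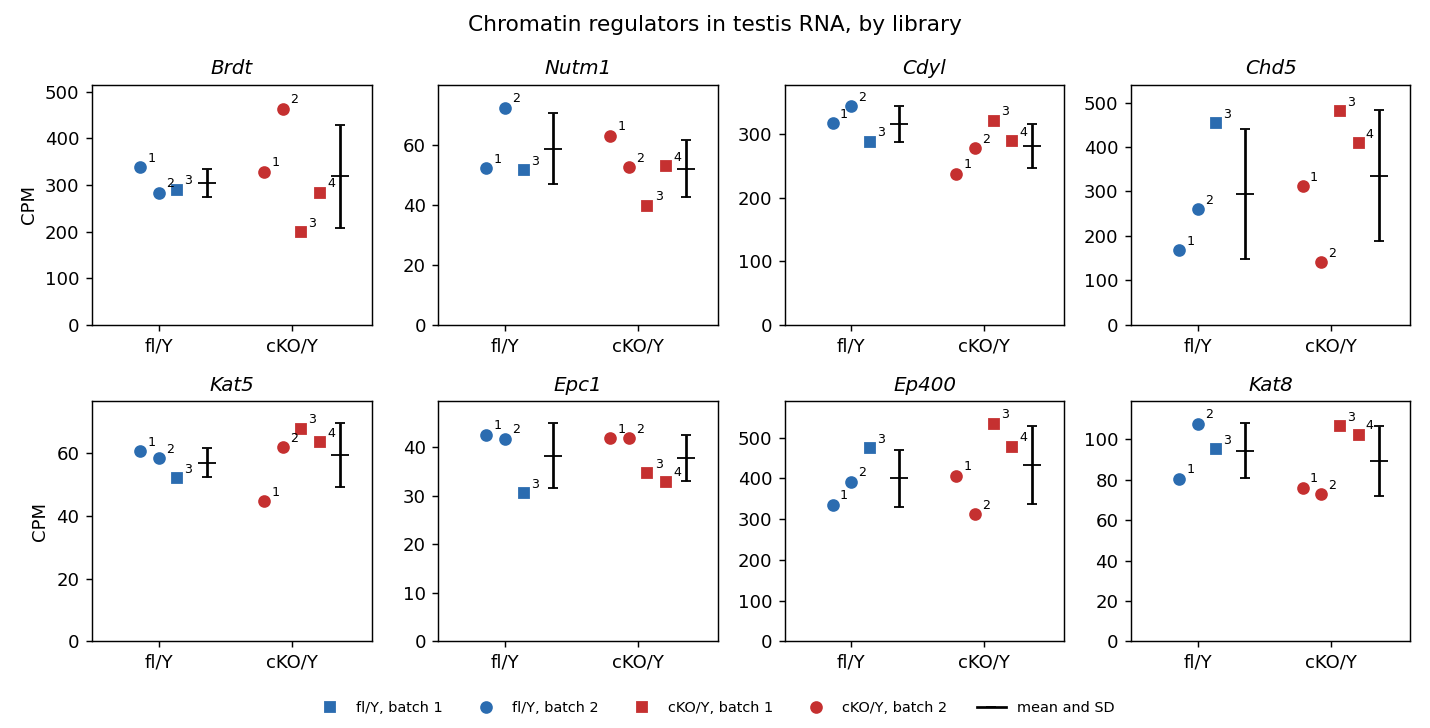
CPM of the 8 regulators in each testis library, from 0, with fl/Y libraries in blue and cKO/Y libraries in red, squares for batch 1 and circles for batch 2, the replicate number beside each point, and the mean with SD as a black bar. The genotypes overlap in all 8 panels, and the widest spread is that of *Chd5*, from 140 to 481 CPM.

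The readers and recruiters of acetylated histones were *Brdt* and *Nutm1*, with *Cdyl* as a reader on the repressive side. *Brdt*, the testis-specific member of the BET family with a pair of bromodomains (GRCm38 chr5:107331159-107387058, + strand), was at 339, 283 and 290 CPM in fl/Y replicates 1 to 3. In cKO/Y replicates 1 to 4 it was at 329, 464, 198 and 284 CPM. The cKO/Y libraries thus lay on both sides of all fl/Y libraries, and their SD was 111 CPM against 30.1 CPM. The means were 304 CPM (n = 3) and 319 CPM (n = 4), a fitted log2 difference of 0.08 ± 0.19 (SE; 95% interval -0.31 to 0.48) with an unadjusted p of 0.658 in the limma fit. Within batch 2 the difference was 0.33, and within batch 1, which holds 1 fl/Y library, it was -0.29. Its direction thus differed between the batches.

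*Nutm1*, a transcript of spermatids whose protein brings acetyltransferases to chromatin (chr2:112247948-112259291, - strand), was at 52.0, 72.3 and 51.5 CPM in fl/Y and at 63.0, 52.4, 39.7 and 52.8 CPM in cKO/Y testes. Its highest library was fl/Y replicate 2 and its lowest cKO/Y replicate 3, with the other 5 between 51.5 and 63.0 CPM. The log2 difference was -0.12 ± 0.17 (SE; interval -0.48 to 0.24), below 0 in both batches, at -0.09 in batch 2 and -0.17 in batch 1.

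*Cdyl* (chr13:35659833-35874063, + strand) had one of the narrowest spreads of the 8, 1.45 times from lowest to highest. It was at 317, 344 and 288 CPM in fl/Y testes and at 238, 278, 322 and 289 CPM in cKO/Y testes. The fitted log2 difference of -0.18 ± 0.15 (SE; interval -0.50 to 0.13, unadjusted p = 0.233, limma) was the largest in size among the 8 and had the smallest p. Batch 2 alone gave -0.36, whereas batch 1 gave 0.08.

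The ATP-dependent remodellers were *Chd5* and *Ep400*. *Chd5*, a chromodomain helicase related to the ATPases of the NuRD complex (chr4:152338651-152390194, + strand), was at 167, 260 and 454 CPM in fl/Y replicates 1 to 3 and at 312, 140, 481 and 408 CPM in cKO/Y replicates 1 to 4. The lowest libraries, fl/Y replicate 1 and cKO/Y replicate 2, and the highest, cKO/Y replicate 3 and fl/Y replicate 3, thus came from both genotypes. The ratio of the highest to the lowest was 3.43, and its SD on the log2 scale, 0.70, stood at the 98.5th percentile of genes with a mean above 10 CPM. Levels averaged 294 ± 146 CPM (SD) over the 3 fl/Y libraries against 335 ± 147 CPM over the 4 of cKO/Y, and the genotype difference in the fit was -0.01 ± 0.23 on the log2 scale (SE; interval -0.50 to 0.48). Batch 2 alone gave 0.0068 and batch 1 alone -0.04.

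The libraries of *Chd5* were separated by batch instead. All 4 libraries of batch 2 were below all 3 of batch 1, with a log2 difference of batch 2 minus batch 1 of -1.10 and an adjusted p of 0.0135 (limma), where 7.06% of all genes tested passed that threshold for the batch. No other of the 8 passed it. The nearest was *Ep400*, at -0.46 with an adjusted p of 0.0741, and *Brdt* stood at 0.47 with an adjusted p of 0.133.

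*Ep400*, the SNF2-type ATPase of the TIP60 complex that exchanges histone variants (chr5:110664373-110770717, - strand), was at 336, 392 and 474 CPM in fl/Y replicates 1 to 3. The cKO/Y libraries held 407, 312, 534 and 478 CPM. It put the libraries in nearly the same order as *Chd5* did, within a narrower span of 1.71 times. The genotype difference was 0.02 ± 0.15 on the log2 scale (SE; interval -0.29 to 0.34), with -0.02 in batch 2 and 0.09 in batch 1.

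The acetyltransferases and their scaffold were *Kat5*, *Epc1* and *Kat8*. *Kat5* encodes TIP60, the catalytic subunit of the complex that also holds EP400 and EPC1 (chr19:5603017-5610094, - strand). It was at 60.6, 58.4 and 52.0 CPM in fl/Y and at 44.7, 61.8, 67.7 and 63.4 CPM in cKO/Y testes. 3 of the 4 cKO/Y libraries stood above every fl/Y library and the fourth below all of them. The log2 difference was 0.03 ± 0.17 (SE; interval -0.33 to 0.38), at -0.18 in batch 2 and 0.33 in batch 1.

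*Epc1*, the scaffold that joins the acetyltransferase to the rest of that complex (chr18:6435951-6516108, - strand), had the smallest ratio of highest to lowest library among the 8, 1.40 times, whereas *Cdyl* had the smallest SD on the log2 scale, 0.17 against 0.20 for *Epc1*. It was at 42.6, 41.8 and 30.5 CPM in fl/Y and at 41.9, 41.9, 34.6 and 32.9 CPM in cKO/Y testes. All 4 libraries of batch 2 lay at 41.8 CPM or more and all 3 of batch 1 at 34.6 CPM or less, with a batch difference of 0.37 on the log2 scale that did not pass adjustment (adjusted p = 0.142, limma). The genotype difference was 0.05 ± 0.15 (SE; interval -0.27 to 0.37), and counts were lowest for this gene, 110 to 328 reads per library.

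*Kat8* encodes MOF, which acetylates histone H4 as the enzyme of the MSL and NSL complexes (chr7:127912516-127925837, + strand). The fl/Y libraries held 80.5, 108 and 95.2 CPM, and cKO/Y libraries 76.0, 73.0, 106 and 102 CPM. Replicates 1 and 2 of cKO/Y were the lowest of the 7, and both belong to batch 2. The log2 difference was -0.14 ± 0.16 (SE; interval -0.47 to 0.19), with -0.32 in batch 2 and 0.13 in batch 1.

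**Figure D2:**
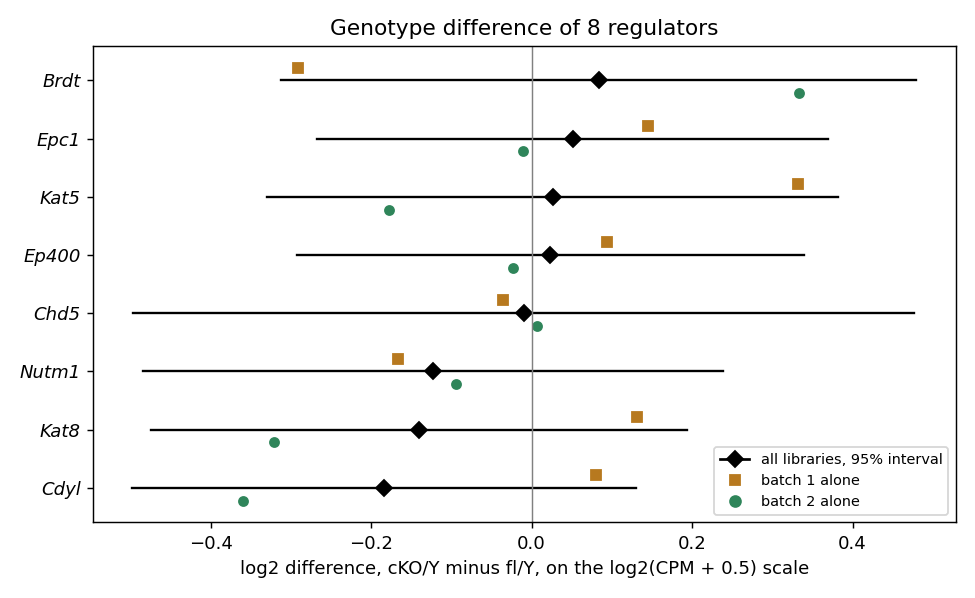
Fitted log2 difference of cKO/Y minus fl/Y for each regulator (black diamond) with its 95% interval (line) over all 7 libraries, and the value within batch 1 (square) and batch 2 (circle). All 8 intervals cross 0, and the 2 batches fall on opposite sides of 0 for 7 genes, all except *Nutm1*. Batch 1 holds 1 fl/Y library, on which all its values rest. For *Chd5* the values were 0.0068 in batch 2 and -0.04 in batch 1, so the direction within a batch is uncertain.

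Some reads could be shared with other genes. Of all 35-base words in the exons of each gene, the share that also occurs in another annotated gene was 10.5% for *Kat5*, 10.3% for *Kat8*, 6.68% for *Cdyl*, 6.56% for *Epc1*, 4.56% for *Ep400* and 0.747% for *Chd5*. It was 0.0196% for *Brdt* and 0% for *Nutm1*. *Rnaseh2c* on the opposite strand covers 12.1% of the exon bases of *Kat5*, *Prss8* covers 4.22% of *Kat8* and *Gm28529* 7.20% of *Epc1*. The sources do not state that counting used the strand, so reads of such partners cannot be told apart, and the values of *Kat5*, *Kat8* and *Epc1* are uncertain to that extent. Those of *Cdyl* and *Ep400* are uncertain by their shared words, at 6.68% and 4.56%.

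Levels can be compared between genes only per length. In CPM per kb of exon (GENCODE M21), the median over the 7 libraries was 65.7 for *Cdyl*, 56.7 for *Brdt*, 32.9 for *Kat8*, 32.6 for *Chd5*, 29.2 for *Ep400*, 17.3 for *Kat5*, 14.1 for *Nutm1* and 9.34 for *Epc1*. On this merged length, the steps from *Brdt* to *Kat8*, from *Ep400* to *Kat5* and from *Nutm1* to *Epc1* had the same direction in 7 of 7 libraries. *Cdyl* was above *Brdt* and *Kat5* above *Nutm1* in 5 of 7. *Kat8* exceeded *Chd5* in 3 and *Chd5* exceeded *Ep400* in 4, so these neighbours did not differ beyond their spread on this length. The order depends on the length chosen. The longest transcript of *Kat8* has 1579 bases against 2891 of merged exon, and that of *Kat5* 2245 against 3509. Both would stand higher per base of transcript, so their places are uncertain. Within the TIP60 complex, and per merged exon length, the ATPase *Ep400* stood above the enzyme *Kat5*, which was above the scaffold *Epc1* in all libraries.

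The spread of *Chd5*, *Ep400* and *Brdt* ran along with the summed levels of several marker lists. The summed level of 12 meiotic genes such as *Sycp1* and *Sycp3* was 2555, 2078 and 1737 CPM in fl/Y replicates 1 to 3 and 1920, 2794, 1340 and 1756 CPM in cKO/Y replicates 1 to 4. *Chd5* put the 7 libraries in exactly the reverse order of this sum. Pearson's r with the log2 level was -0.96 for *Chd5* (r -0.99 without the 2 libraries farthest from the median) and -0.98 for *Ep400* (Spearman's rho -0.96, r -0.98 without 2). For *Brdt* it was 0.92 (rho 0.75), and 0.66 without those 2 libraries. With the mean of each batch removed, r was -0.88 for *Chd5*, -0.98 for *Ep400* and 0.85 for *Brdt*. The genes of the meiotic sum did not all move alike between batches. Their log2 difference of batch 2 minus batch 1 was 1.38 for *Sycp1* and 0.90 for *Sycp3*. It was -0.35 for *Ovol2*, -0.14 for *Pgk2*, -0.11 for *Ccna1* and -0.08 for *Spo11*, and above 0 for the others.

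The sum of 12 elongating spermatid genes, protamines included, was 10856 to 13717 CPM in fl/Y and 10097 to 15463 CPM in cKO/Y testes. Its r was 0.89 with *Chd5*, 0.95 with *Ep400* and -0.88 with *Brdt*, and within batches 0.58, 0.76 and -0.98. For 12 round spermatid genes (1398 to 1915 CPM in fl/Y, 1431 to 1951 CPM in cKO/Y) *Chd5*, *Ep400* and *Brdt* gave 0.91, 0.93 and -0.79, and within batches 0.65, 0.68 and -0.63. Of the somatic lists, some ran along with *Chd5* and *Ep400* and others less so. The 12 Sertoli cell genes (394 to 651 CPM in fl/Y, 405 to 714 CPM in cKO/Y) had r of 0.91 with *Chd5*, and 0.47 without the 2 libraries farthest from the median. Within batches their r was 0.97 with *Chd5* and 0.92 with *Ep400*. The 7 endothelial genes (36.8 to 48.0 CPM in fl/Y, 33.3 to 57.9 CPM in cKO/Y) had r of 0.92 with *Chd5* and 0.95 with *Ep400*, and 0.72 and 0.81 within batches. Peritubular myoid genes had r of 0.75 with *Chd5* and 0.81 with *Ep400* (0.68 and 0.86 within batches). Among germ cells, spermatogonial genes had 0.51 and 0.48, which went to 0.88 and 0.92 within batches. The r with *Chd5* and *Ep400* were 0.30 and 0.44 for 9 Leydig cell genes (-0.29 and -0.04 within batches). They were 0.21 and 0.30 for 8 macrophage and immune genes (0.46 and 0.68 within batches). *Epc1* and *Kat8* had r of 0.70 and -0.71 with the meiotic sum, which went to -0.40 and -0.44 within batches, and of -0.89 and 0.83 with the round spermatid sum, which went to -0.03 and 0.83. *Kat5*, *Cdyl* and *Nutm1* had r of -0.07, -0.09 and 0.43 with the meiotic sum. The r of *Nutm1* that was largest in size was with the Leydig cell genes, -0.87. It was -0.65 without the 2 libraries farthest from the median and -0.81 within batches. With the elongating spermatid sum *Nutm1* had r of -0.61, which went to -0.07 within batches. These are descriptions over 7 libraries, out of 88 relations of the 8 genes with 10 marker lists and the mitochondrial share, and all values of a library share its depth and scaling.

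Other features of the libraries also varied along with these genes. The share of mitochondrial reads had r of -0.93 with *Chd5*, -0.94 with *Ep400*, 0.82 with *Epc1* and 0.71 with *Brdt*. Within batches these were -0.75, -0.76, -0.24 and 0.36. Libraries also differed by the GC content of the transcripts. Over 9373 genes, Spearman's rho between GC content and the deviation of a library from the mean was -0.64, -0.18 and 0.42 in fl/Y replicates 1 to 3 and 0.11, -0.74, 0.68 and 0.55 in cKO/Y replicates 1 to 4. Libraries with low rho had low *Chd5* and *Ep400*. The transcript of *Chd5* has 57.4% GC, at the 91.9th percentile of these genes, that of *Ep400* 52.5% and that of *Brdt* 45.0%, where the median gene had 48.4%. The median was 41.2% for the meiotic list and 54.7% for the elongating spermatid list.

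The trend against GC content was removed from each library as an alternative chosen after seeing the data. The SD on the log2 scale then fell from 0.70 to 0.47 for *Chd5* and from 0.28 to 0.16 for *Ep400*. It fell from 0.37 to 0.29 for *Brdt* and from 0.24 to 0.17 for *Kat8*. For *Kat5* it rose from 0.20 to 0.27 and for *Nutm1* from 0.27 to 0.32. Rises were also seen for *Epc1*, from 0.20 to 0.23, and *Cdyl*, from 0.17 to 0.19. *Chd5* was then at 200, 266 and 411 CPM in fl/Y and at 298, 178, 385 and 357 CPM in cKO/Y testes, and its batch difference was -0.74 with an adjusted p of 0.0117 (limma). With the batch means left in, the relation to the meiotic sum remained at r of -0.77 for *Chd5*, -0.85 for *Ep400* and 0.83 for *Brdt*. This was not particular to the meiotic list. For *Chd5* and *Ep400*, r was 0.82 and 0.89 with round spermatid genes and 0.72 and 0.86 with elongating spermatid genes. It was 0.83 and 0.90 with endothelial genes, but 0.36 and 0.48 with peritubular myoid genes and -0.02 and -0.13 with spermatogonial genes. *Brdt* had r of -0.77 with elongating spermatid genes. The genotype differences of *Chd5*, *Ep400* and *Brdt* were then -0.06, 0.01 and 0.11. The part of cell composition, batch, mitochondrial share and GC content in the spread of these genes was not tested.

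**Figure D3:**
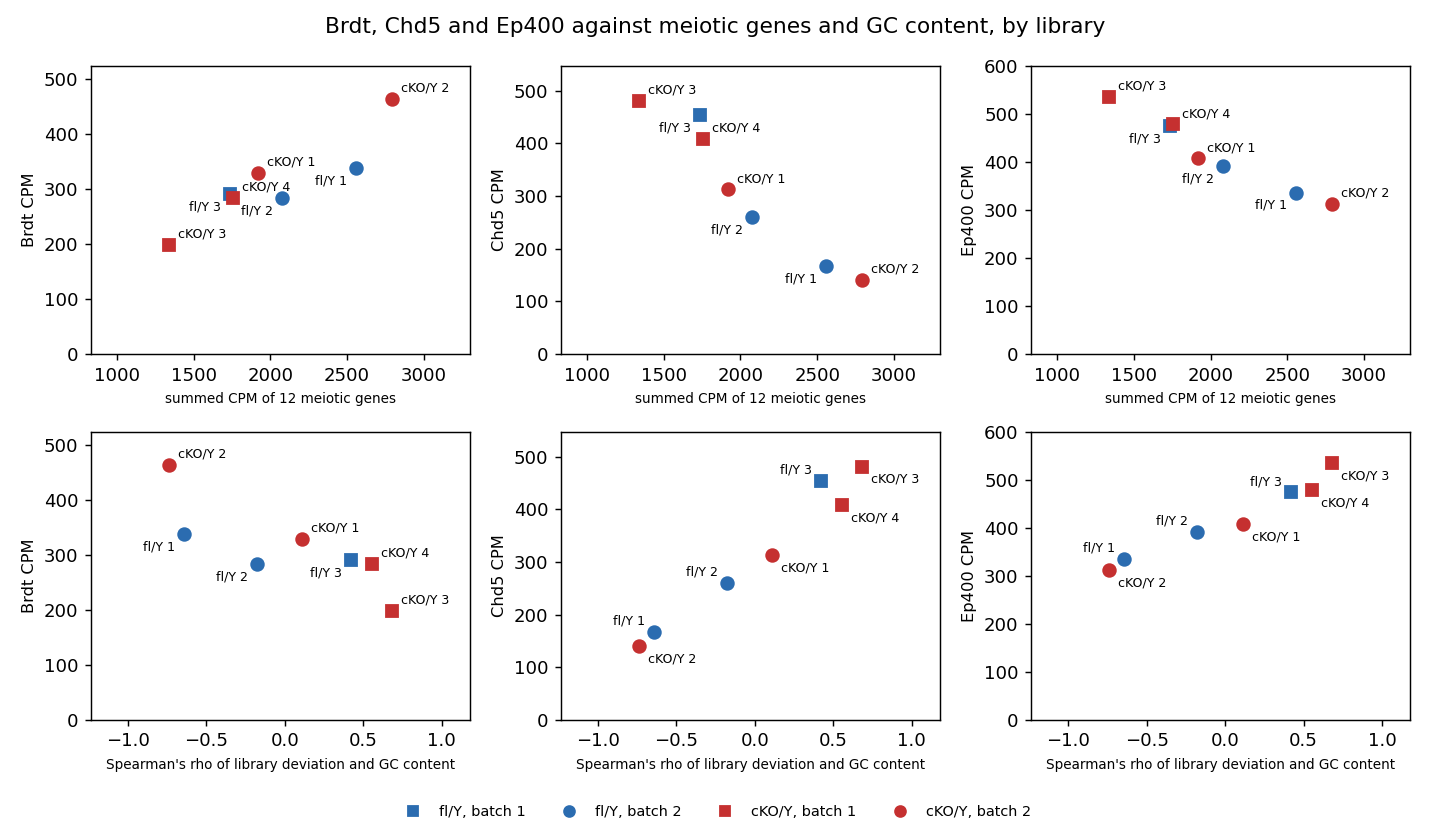
CPM of *Brdt*, *Chd5* and *Ep400* (vertical axes, from 0) in each library against the summed CPM of 12 meiotic genes (top) and against Spearman's rho between GC content and the deviation of the library (bottom), with fl/Y in blue, cKO/Y in red, squares for batch 1 and circles for batch 2. *Chd5* and *Ep400* go down and *Brdt* goes up with the meiotic sum, and libraries of both genotypes lie along the same course.

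Among the 28 pairs of the 8 genes, 6 had r above 0.5 and 6 below -0.5 over the 7 libraries after removal of the batch means. The highest was *Chd5* with *Ep400*, at 0.95 (0.98 as deposited). Without the GC trend r for this pair was 0.95 with the batch means left in and 0.85 with them removed. *Kat8* with *Cdyl* reached 0.76 and *Kat5* with *Cdyl* 0.70. *Brdt* ran opposite to *Ep400* at -0.82, to *Kat8* at -0.70 and to *Chd5* at -0.65. With the GC trend removed as well, these 3 values were -0.74, -0.51 and -0.46. The lowest of the 28 pairs was then *Chd5* with *Kat5*, at -0.93. For the 3 genes of the TIP60 complex the values depended on the batch means. *Ep400* had r of -0.39 with *Kat5* (0.09 as deposited) and of 0.28 with *Epc1* (-0.80 as deposited), and *Epc1* had r of 0.62 with *Kat5* (-0.14 as deposited), so that all 3 pairs changed sign.

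For 7 of the regulators the gene of the closest pattern, out of 9377 with a mean above 10 CPM and after removal of the batch means, was *Ttll8* for *Chd5* (r = 0.997), *Tnk2* for *Ep400* (0.999), *Cap2* for *Cdyl* (0.998), *C8b* for *Kat5* (0.994), *Sh3rf2* for *Kat8* (0.993), *4933435G04Rik* for *Nutm1* (0.994) and *Med20* for *Epc1* (0.980). Many genes shared such patterns over so few libraries. 450 genes had r above 0.9 with *Chd5*, 395 with *Ep400* and 201 with *Brdt*, but 44 to 104 with each of the other 5.

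The genes that work beside these regulators gave a like picture. 8 lists of the pathway held 92 tested genes, and 0 of them reached an unadjusted p of 0.05 in either direction, beside the 2.58% of all genes. The count was also 0 in 15 of 22 alternatives, and up to 4 in the others. 48 of the 92 differences were below 0 and 44 above, with a median of -0.009 on the log2 scale. Of 15 further subunits of the TIP60-NuA4 complex (median 0.03), the smallest p were those of *Epc2*, a paralog of *Epc1*, at 47.8 ± 2.07 CPM (SD over 3 libraries, and 4 for cKO/Y) in fl/Y and 41.3 ± 8.46 CPM in cKO/Y testes, and of *Yeats4*, which binds acetylated histones, at 38.2 ± 5.05 and 41.1 ± 8.96 CPM. 11 partners of KAT8 in the MSL and NSL complexes had a median of 0.0006. Among them *Hcfc1*, a subunit of the NSL complex, was at 31.0 ± 10.4 CPM in fl/Y and 44.8 ± 14.5 CPM in cKO/Y testes (log2 difference 0.42, unadjusted p = 0.101, limma), and *Phf20*, a methyl-lysine reader of that complex, at 51.2 ± 3.03 and 44.6 ± 8.97 CPM.

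9 other histone acetyltransferases had a median of -0.02, and *Crebbp*, whose protein works with NUTM1, was at 74.1 ± 25.7 CPM in fl/Y and 87.4 ± 23.8 CPM in cKO/Y testes. *Kat2b*, a GCN5-related acetyltransferase, was at 56.3 ± 2.74 and 52.2 ± 10.05 CPM. The enzymes that take acyl groups off, 16 histone deacetylases and sirtuins with a median of 0.0081, included the gene with the smallest p of all 92. This was *Hdac9*, at 10.04, 8.28 and 8.75 CPM in fl/Y and at 12.4, 11.2, 12.6 and 13.0 CPM in cKO/Y testes, with a log2 difference of 0.42 and an unadjusted p of 0.0542 (limma). Its 4 cKO/Y libraries were all above the 3 fl/Y libraries, a separation that 2.92% of all genes had in 1 direction or the other. *Hdac10* was at 5.74 ± 0.546 and 4.48 ± 1.28 CPM.

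The paralogs of BRDT, CHD5 and CDYL, 12 genes, had a median of 0.04, with *Chd7*, another chromodomain helicase, at 27.1 ± 7.67 CPM in fl/Y and 24.0 ± 7.19 CPM in cKO/Y testes, and *Cdyl2* at 10.5 ± 4.49 and 12.2 ± 1.64 CPM. *Brd2*, a somatic BET gene chosen after its values were seen, was even across libraries, at 399 ± 15.1 and 379 ± 27.4 CPM.

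Further along the exchange, 10 genes of the ubiquitin and proteasome arm of histone removal had a median of 0.04. Their smallest p were those of *L3mbtl1*, a reader of methylated histones at 1.56 ± 0.598 and 2.68 ± 1.44 CPM, and *Rnf168*, a histone ubiquitin ligase at 62.9 ± 12.4 and 54.9 ± 17.9 CPM. 8 genes of strand break and nick repair had a median of -0.06, with *Parp1* at 125 ± 7.97 and 116 ± 18.1 CPM and the nick ligase *Lig3* at 267 ± 8.57 and 255 ± 17.8 CPM. The products of the exchange, 11 genes of transition proteins, protamines and their modifiers, had a median of -0.03. Here the phosphatase gene *Ppp1cc* was at 204 ± 74.8 CPM in fl/Y and 244 ± 78.5 CPM in cKO/Y testes, and *Tnp1*, the first transition protein, at 1532 ± 294 and 1358 ± 137 CPM.

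**Figure D4:**
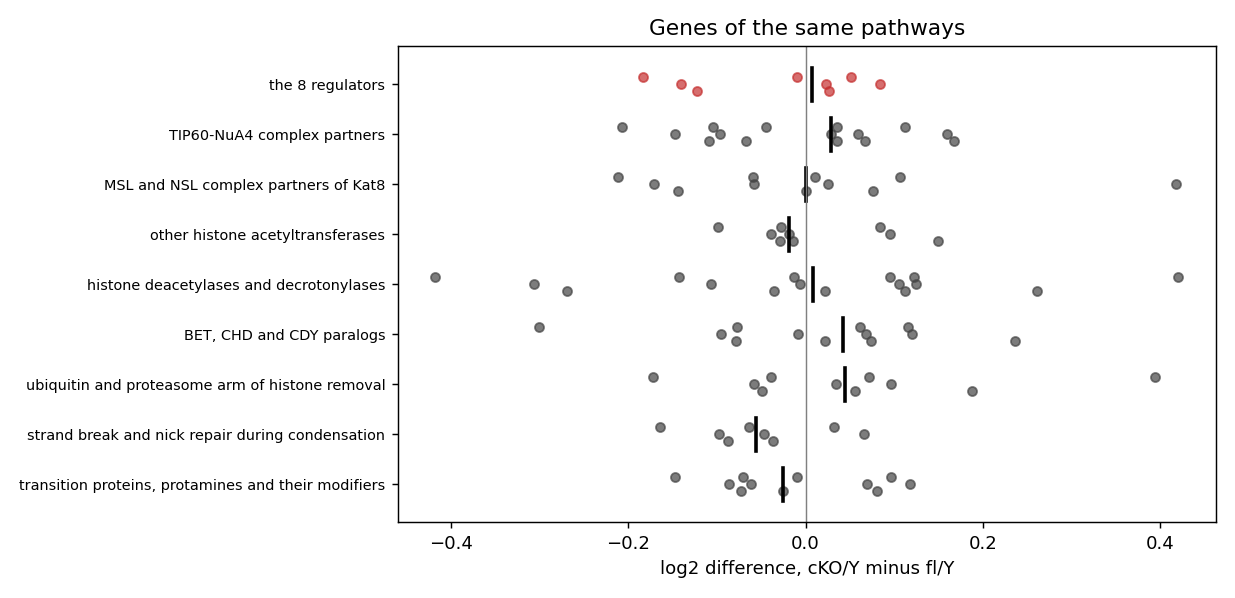
Fitted log2 difference of cKO/Y minus fl/Y for the 8 regulators (red) and the genes of 8 lists of the same pathways (grey), 1 point per gene, with the median of each list as a black line. The medians lie between -0.06 and 0.04, and single genes between -0.42 and 0.42.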

How the data were processed

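Total testis RNA was sequenced in 3 libraries of fl/Y and 4 of cKO/Y Sox2-Cre males. The deposited table holds signal values in CPM, made by the authors. The labels name HISAT2 2.1.0, featureCounts, edgeR and GRCm38, whereas the study's methods name TopHat and HTSeq with edgeR on mm10. In each of the 7 columns 100% of values were whole multiples of 1 read to within 0.001 of a read, so reads were recovered for depth and for the count tests. Genes above 1 CPM in at least 3 libraries (19400) were tested on log2(CPM + 0.5) with limma 3.58.1 in R 4.3.3, with a variance trend and the batch of the labels as covariate. Tests were two-sided, and the Benjamini-Hochberg adjustment ran over all genes tested, at a threshold of 0.05. Fold changes on this scale understate those of low genes. The fit was tested on simulated data. Genes were named by rule: the 8 regulators, *Rlim*, the 2 genes with the smallest p of each pathway list (none reached an unadjusted p of 0.05), and the gene closest in pattern to each regulator, of which 1 is not reported here. Members, lists and tests were chosen with earlier results of these data known. Correlations use log2 values and carry no test. 20 alternatives were set at the start, among them edgeR 4.0.16 and DESeq2 1.42.0 on recovered reads, and 2 were added after seeing the data (scaling without mitochondrial genes, GC trend removed). Per-length values divide CPM by the merged exon length. Protein sequences were not used here.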

Additional observations from a re-analysis of the deposited data

How the results depend on the processing

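0 of the 8 regulators reached an unadjusted p of 0.05 under any of the 22 alternatives, where their smallest unadjusted p was 0.089 and adjusted p ranged from 0.827 to 1.00 (limma, edgeR and DESeq2). Since the differences are close to 0, 31 of 176 values changed sign. *Chd5* went to 0.17 without the batch term, 0.0068 in batch 2 alone, 0.035 with edgeR's quasi-likelihood test, 0.036 with its likelihood ratio test and 0.039 with DESeq2. *Epc1* went to -0.0099 without the batch term, -0.0108 in batch 2 and -0.0104 when scaled without mitochondrial genes, *Kat5* to -0.18 and -0.035 and *Ep400* to -0.023 and -0.039 under the latter 2. In batch 1 alone *Brdt* went to -0.29, *Kat8* to 0.13 and *Cdyl* to 0.081. The cause of these changes was not tested. Of the 92 pathway genes, 4 had an unadjusted p under 0.05 without cKO/Y replicate 2 and 4 in batch 1 alone, 2 with the GC trend removed, and 1 each without cKO/Y replicate 1, without cKO/Y replicate 3, with a pseudocount of 0.1 CPM and without the variance trend.

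With 1 library left out at a time, the log2 difference ranged from -0.10 to 0.33 for *Brdt*, -0.36 to -0.08 for *Cdyl*, -0.30 to 0.27 for *Chd5*, -0.060 to 0.13 for *Ep400*, -0.0108 to 0.073 for *Epc1*, -0.18 to 0.19 for *Kat5*, -0.32 to 0.0098 for *Kat8* and -0.25 to -0.01 for *Nutm1*. The median of the 8 ranged from -0.09 to 0.04, the count of regulators at an unadjusted p of 0.05 from 0 to 0, and the count of all genes called from 0 (without fl/Y replicate 1 or 3) to 3 (without cKO/Y replicate 2), with 2 called without cKO/Y replicate 3.

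1 gene of all was called, but 0 without the variance trend (380 lower and 362 higher at an unadjusted p of 0.05), 0 without the batch term (163 and 171), 0 in batch 2 alone (192 and 135), 28 in batch 1 alone, where the lone fl/Y library is assumed to vary like the others, and 10 with edgeR's likelihood ratio test. Genes lower and higher at an unadjusted p of 0.05 numbered 265 and 236, but 283 and 144 when scaled without mitochondrial genes, which put the median of all genes at -0.06, and 92 and 90 with DESeq2. *Rlim* kept its direction in all alternatives, with adjusted p of 0.002 to 0.634 when 1 library was left out, and lost its call without fl/Y replicate 1 or 3. Depth limits *Epc1* most, at 110 to 328 reads per library.

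The replicate numbers were not taken as pairs. The correlations of deviations from the genotype means were 0.10, 0.07 and 0.39 for same-numbered libraries. Of the cKO/Y libraries, replicate 2 correlated best with fl/Y replicates 1 (0.47) and 2 (0.07), and replicate 3 with fl/Y replicate 3. The batch was left in these deviations, so they cannot decide whether the numbers mark pairs. With the replicate block in place of the batch term 0 genes were called after adjustment (196 lower and 160 higher at an unadjusted p of 0.05, limma). *Chd5* then stood at 0.032. In that block cKO/Y replicate 4 stands alone, so the differences equal those with this library left out. Likewise, the differences without fl/Y replicate 3, the only fl/Y library of batch 1, equal those of batch 2 alone.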
